A study of Rattus norvegicus with 6 samples.

Results

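The miRNAs miR-10a-5p (rno-miR-10a-5p) and miR-10b-5p (rno-miR-10b-5p) are 2 of the 758 rat miRNAs on the array, and were followed here across the myocardium of rats with and without myocardial infarction (MI). They were chosen by name from the scanner output, with their values known beforehand: the rule takes the signal of their probes on the 3 control and the 3 model arrays and asks how far arrays of one group lie apart. The differences between groups given for the pair are therefore descriptions and carry no test. Both miRNAs were detected on 6 of the 6 arrays.

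The samples were total RNA of myocardium from male Sprague–Dawley rats, 4 weeks after surgery, with 3 arrays in each group and tissue from 1 rat on each array. In the model group the left anterior descending coronary artery was tied off and the tissue came from the margin of the infarct. In the control group the thread was passed without ligation. Ages were not given in the sources used here, and the rats carried no genetic change. On these single-colour Agilent arrays, Cy3-labelled RNA pairs with short probes held on glass, and a spot's fluorescence is its signal.

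MicroRNAs are short RNAs that pair, mainly through a stretch near their 5′ end called the seed, with messenger RNAs and lower their translation or stability. The genes of miR-10a and miR-10b lie inside Hox clusters, the groups of transcription factor genes that set position along the body axis, and Hox messenger RNAs are among their known targets. MiR-10a has also been studied in vascular endothelium, where it restrains inflammatory signalling, and miR-10b is best known from the spread of tumour cells. In the RefSeq gene table of rat assembly GRCr8, Mir10a lies between the protein-coding genes Hoxb5 and Hoxb4, and Mir10b lies within the bounds of Hoxd4. The table does not give exons, so whether Mir10b is intronic was not determined.

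The mature sequences below, from RefSeq (GRCr8), are shown because the members and their nearest relatives differ by few bases. Each is written 5′ to 3′ with bases 2 to 8, the seed, in capitals. MiR-10a-5p lies at chr10:81779730-81779752, miR-10b-5p at chr3:80035886-80035907, miR-99b-5p at chr1:67350070-67350091 and miR-100-5p at chr8:50798307-50798328, each on the plus strand.
miR-10a-5p: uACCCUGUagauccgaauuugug
miR-10b-5p: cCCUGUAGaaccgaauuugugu
miR-99b-5p: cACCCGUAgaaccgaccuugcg
miR-100-5p: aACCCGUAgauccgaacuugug

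As annotated, miR-10b-5p starts 2 bases further along its hairpin than miR-10a-5p does, so the letters in its seed position differ. Read from 2 bases upstream of that start, over the 23 bases of miR-10a-5p (chr3:80035884-80035906), the Mir10b hairpin gives the following, with the same positions in capitals.
Mir10b in the frame of miR-10a-5p: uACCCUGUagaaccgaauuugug

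In this frame the sequences differed at 1 of 23 bases, U12A, counted from the 5′ end of miR-10a-5p with its base first. The seed was the same. MiR-99b-5p and miR-100-5p carried a seed of their own, ACCCGUA, which they shared with each other.

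MiR-10a-5p ranged more widely between rats of one group than between the groups. Its signal, the sum of its detected probes before scaling, was 26.5, 67.2 and 21.5 on control arrays 1, 2 and 3. On model arrays 1, 2 and 3 it was 36.7, 72.0 and 16.0. Array 2 was the highest of each group and array 3 the lowest, and the groups overlapped over most of their range.

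For comparison between arrays, signals were taken relative to their array's 75th percentile over the 198 miRNAs with a detected signal on 6 of 6 arrays, and then as log2. On this scale the control values of miR-10a-5p were -2.45, -1.49 and -2.76, and its model values were -2.47, -1.42 and -3.39. The highest control array was 2.41-fold above the lowest, and the highest model array 3.92-fold above the lowest. The control mean was -2.23 ± 0.66 (SD, n = 3), and the model mean was -2.43 ± 0.99 (SD, n = 3). The difference, model minus control, was -0.19 (standard error 0.57), a fold of 0.876, and lay well inside the spread of either group.

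Its direction depended on single arrays and on the scaling. Without control array 2 the difference became 0.17, without model array 3 it became 0.28, and without model array 2 it became -0.70. It was 0.050 with no scaling and 0.15 with the totals as deposited. Relative to the median of all 214 miRNAs compared, which was itself at -0.14, miR-10a-5p stood at -0.056. No direction is given for it.

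MiR-10b-5p was higher on average in the model group, although its groups overlapped too. Its signal was 4.27, 11.3 and 2.93 on control arrays 1, 2 and 3. On model arrays 1, 2 and 3 it was 14.1, 12.6 and 5.84. Control array 2 lay above model array 3 and just under the other 2 model arrays, while control arrays 1 and 3 lay below all model arrays.

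On the scaled log2 scale its control values were -5.09, -4.06 and -5.63, and its model values were -3.85, -3.94 and -4.85. The highest control array was 2.98-fold above the lowest, and the highest model array 2.00-fold. The group means were -4.93 ± 0.80 (SD, n = 3) and -4.21 ± 0.55 (SD, n = 3). The difference, model minus control, was 0.72 (standard error 0.47), a fold of 1.64. It was smaller than the SD of the control arrays and larger than that of the model arrays. Relative to the median of all miRNAs compared it was 0.85.

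The size of this difference depended on single arrays of both groups. Leaving out control array 2 gave 1.14, and leaving out control array 3 gave 0.35. Leaving out model array 3 gave 1.02, and leaving out model array 1 gave 0.51. It was above 0 with each array left out in turn. With normexp background correction and an offset of 50, it was 0.022, and with processed spot signals averaged in place of probe totals it was 0.36. Both settings average in a probe of miR-10b-5p that was not detected on any array. The scaled readings of that probe alone differed by 0.68, model minus control. Processed signals under a floor were raised to it before they were averaged, which flattens a dim probe. The offset exceeds the mean spot signals of the detected probe, 6.18 to 27.4, and so compresses its log2 differences. The difference of miR-10b-5p was above 0 in 17 of the 17 alternatives that were run. All of these reuse the same arrays and are not independent of each other.

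**Figure D1:**
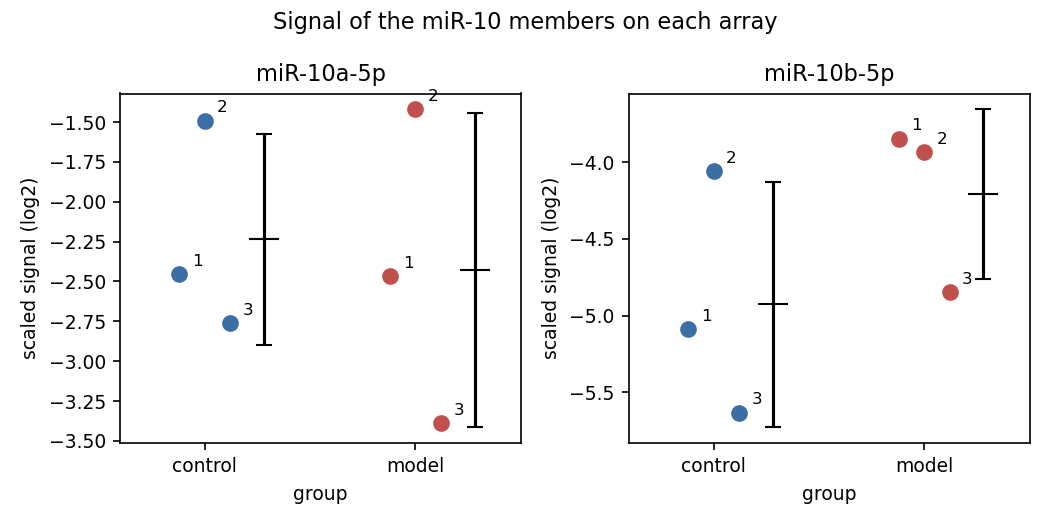
Scaled signal (log2) of miR-10a-5p and miR-10b-5p on each of the 6 arrays, by group, with the array number beside each point and the mean ± SD of 3 arrays as a black bar. The groups overlap for both miRNAs, and control array 2 stands above the other control arrays in both panels.

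The groups did not overlap for 101 of the 214 miRNAs compared, or 47.2%. For the members this count was 0 of 2. Since the choice of the pair used these values, nothing is read from the count.

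The spread between arrays of one group set both members apart from most miRNAs, and was among the values that led to their choice. Pooled over the groups, the SD of miR-10a-5p was 0.84 log2 units, the highest of the 198 miRNAs detected on all arrays. That of miR-10b-5p was 0.69, the third highest. The median over the 198 miRNAs was 0.17 and the 90th percentile was 0.37. Taken by group, miR-10a-5p ranked 5 among control arrays and 2 among model arrays, and miR-10b-5p ranked 2 and 9.

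Dim miRNAs vary more between arrays, so the members were also set beside miRNAs of like signal out of the same 198. Among the 48 others whose mean lay within 1 log2 unit of miR-10a-5p, the median pooled SD was 0.14 and the highest, of miR-31a-5p, was 0.58. The SD of miR-10a-5p was 6.12 times that median. Among the 58 others within 1 log2 unit of miR-10b-5p, the median was 0.22, and miR-3584-3p alone, at 0.79, lay above it. Both sets hold miRNAs detected on all arrays. Of those missed on some array and set to the floor there, miR-3562 had SDs of 1.42 (control) and 0.74 (model), miR-218a-5p of 1.07 and 0.27, and miR-425-3p of 0.26 and 1.07. Under quantile normalization, no scaling, the 75th percentile of all miRNAs and centring on the median, miR-10a-5p ranked first. In the authors' normalized values it ranked 6 and miR-10b-5p 9, with SDs of 0.85 and 0.68, and in the totals as deposited they ranked 9 and 10.

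The SDs themselves depended on how probes and background were treated. With averaged processed signals they were 0.81 for miR-10a-5p and 0.34 for miR-10b-5p, and with normexp background correction 0.28 and 0.030. Both settings average a miRNA's probes on the log2 scale, so the undetected probe of miR-10b-5p counts as much as its detected one. Processed signals under a floor were raised to it before averaging, which flattens a dim probe. The normexp offset also compresses dim signals. Ranks were not computed under these settings. When arrays were left out one at a time, the SD of miR-10a-5p ran from 0.66 to 1.08 and that of miR-10b-5p from 0.48 to 0.89.

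**Figure D2:**
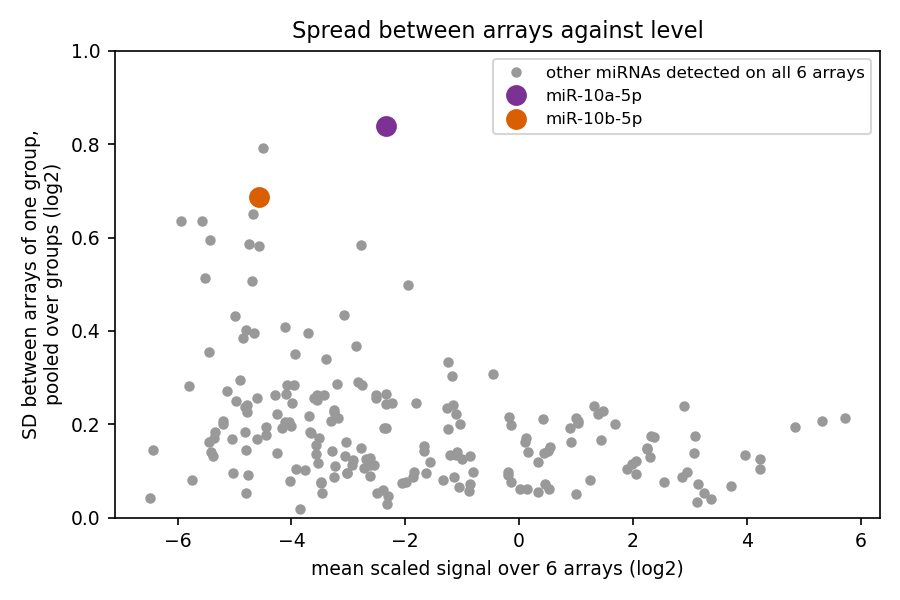
SD between arrays of one group, pooled over the groups (log2), against the mean scaled signal (log2) for the 198 miRNAs detected on all 6 arrays. MiR-10a-5p, at 0.84, lies above every other point, and miR-10b-5p, at 0.69, lies near the top of the miRNAs of its own level.

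The spots of one array varied less than the arrays did. Each member has 2 probes with 8 spots per probe. For miR-10a-5p the coefficient of variation among the 8 spots of a probe ran from 3.77% to 12.6% over its probes and arrays, with a median of 7.34%. The scanner software put the error of its probe signals between 10.2% and 17.3%. These spots measure 1 RNA sample again and are not replicates of a condition.

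Both probes of miR-10a-5p gave the same order of arrays. Probe A_26_P00001181 read 7.67, 21.0 and 6.37 for control, and 11.4, 22.3 and 5.10 for model. Probe A_26_P00002567 read 18.8, 46.2 and 15.1 for control, and 25.3, 49.7 and 10.9 for model. All 8 spots of each probe were well above background on all arrays. The scaled differences between groups were -0.13 and -0.22 on the log2 scale.

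MiR-10b-5p rested on 1 of its 2 probes. Probe A_26_P00001189 passed the detection rule, a signal over 3 times its error, on 6 of 6 arrays, and is the whole of the signal given above. On control array 3 it passed narrowly, at 3.22 times its error, and on control array 1 it stood at 4.14 times. Only 2 of its 8 spots on control array 1 and 1 of 8 on control array 3 were well above background, against 8 of 8 on each of the other 4 arrays. The coefficient of variation of its spots ran from 6.57% to 31.8%. The control values of miR-10b-5p were thus read close to the limit of detection: the lowest signal of any detected miRNA was 1.60 on control array 1 and 1.38 on control array 3.

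The other probe, A_26_P00001188, was not detected on any array. It read 0.468, 0.844 and 0.680 for control and 1.83, 1.42 and 0.697 for model, at most 2.00 times its error. Adding its readings to the total gave a difference of 0.70 for miR-10b-5p.

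**Figure D3:**
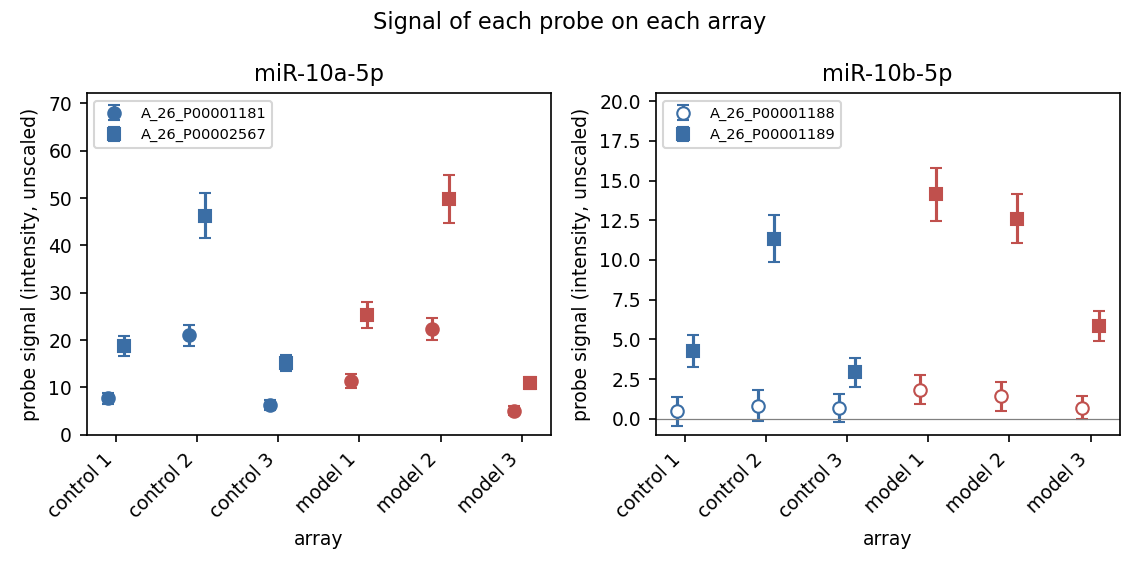
Unscaled signal of each probe of miR-10a-5p and miR-10b-5p on each array, control in blue and model in red, with the error given by the scanner software as bars and open symbols for probes that were not detected. The 2 probes of miR-10a-5p rise and fall over the same arrays, and 1 of the 2 probes of miR-10b-5p stays near 0 throughout.

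The total that the scanner software reports for miR-10b-5p did not measure miR-10b-5p. In these files it held the total of miR-10a-5p in addition to the signal of its own probes. The deposited control totals were 30.8, 78.6 and 24.4, and the model totals were 50.8, 84.6 and 21.9. They exceeded the miRNA's own probes 6.92-fold to 8.32-fold on the control arrays and 3.60-fold to 6.71-fold on the model arrays. The excess equalled the signal of miR-10a-5p on every array. Read from these totals, the difference between groups was 0.32 instead of 0.72. The totals of miR-10a-5p itself equalled the sum of its probes.

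The authors' normalized log2 values kept the order of arrays within each group for both members. For miR-10a-5p they were 4.87, 5.88 and 4.68 (control) and 5.07, 6.12 and 4.09 (model). For miR-10b-5p they were 2.63, 3.35 and 1.89, and 3.68, 3.48 and 2.53. The differences between groups in these values were -0.048 and 0.61.

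The signals of the members moved together on the control arrays and apart on 2 of the model arrays. The ratio of miR-10b-5p to miR-10a-5p within an array is not changed by dividing an array by 1 factor, and its change between arrays is read here, not its size. It was 0.161, 0.169 and 0.137 on the control arrays. On model arrays 1, 2 and 3 it was 0.385, 0.175 and 0.364. Model array 2 lay just above the control arrays, and model arrays 1 and 3 lay well above both.

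On the log2 scale the ratio averaged -2.69 ± 0.16 (SD, n = 3) for control and -1.78 ± 0.63 (SD, n = 3) for model. The difference was 0.91 (standard error 0.38), a fold of 1.88. The ratio was thus steadier over the control arrays than either member, whose SDs there were 0.66 and 0.80. Without model array 2 the difference was 1.27, and without model array 1 it was 0.71. With the totals as deposited it shrank to 0.18, and with normexp background correction to 0.099. It was 0.70 under quantile normalization and 0.65 in the authors' normalized values. The values describe a higher ratio on model arrays 1 and 3, without a test, and do not show which member changed. On control arrays 1 and 3 the signal of miR-10b-5p was close to the limit of detection, at 4.14 and 3.22 times its error. Probe sequences were not given in the sources used here, and whether the detected probe of miR-10b-5p also binds miR-10a-5p was not tested.

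**Figure D4:**
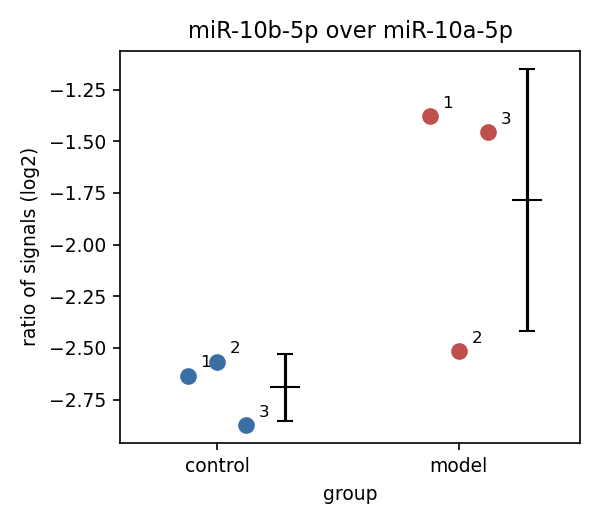
Ratio of the signal of miR-10b-5p to that of miR-10a-5p (log2) on each array, by group, with the array number beside each point and the mean ± SD of 3 arrays as a black bar. The control arrays lie together near -2.69, model array 2 lies just above them, and model arrays 1 and 3 lie at -1.38 and -1.46.

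Place on the slide cannot be told apart from rat, and row only in part from group. All 6 arrays shared 1 slide and 1 scan time. Row 1 held the 3 control arrays with model array 1, and row 2 held model arrays 2 and 3, which were the highest and the lowest for miR-10a-5p. Within row 1, the one row with both groups, model array 1 differed from the control mean by -0.23 for miR-10a-5p and by 1.08 for miR-10b-5p, the values also given by a fit with the row as a block. The 75th percentile used for scaling ran from 145 to 203 signal units, and was 189 on control array 2 and 193 on model array 2.

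The profile of miR-10a-5p over the 6 arrays was most like that of miR-142-3p, a miRNA of blood cells. Likeness was measured as the root mean square difference of the log2 values, each miRNA centred on its own mean over 6 arrays. This was 0.48 for miR-142-3p, 0.52 for miR-204-5p, 0.54 for miR-15a-5p, 0.56 for miR-532-5p and 0.58 for miR-146a-5p. The median over all others was 0.73, and a flat profile would stand at 0.69. MiR-142-3p had signals of 21.6, 32.5 and 15.6 (control) and 22.3, 34.9 and 20.0 (model), again highest on array 2 of each group. MiR-10b-5p came sixth in this order, at 0.59.

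The profile of miR-10b-5p was nearest to miR-511-3p, at 0.42, miR-146b-5p, at 0.45, miR-148b-3p, at 0.47, miR-301a-3p, at 0.48, and miR-324-5p, at 0.49. The median over all others was 0.74, and a flat profile would stand at 0.67. MiR-10a-5p was in place 29 for it. These are descriptions over 6 arrays that share their scaling.

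**Figure D5:**
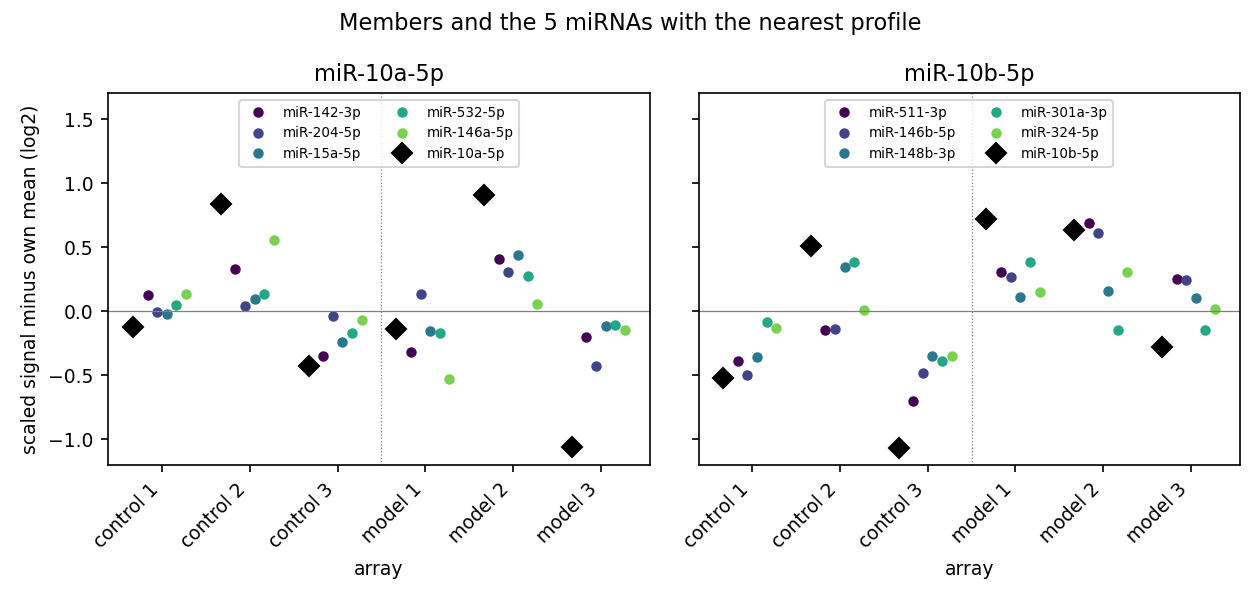
Scaled signal (log2) minus the miRNA's own mean over 6 arrays, for miR-10a-5p (left) and miR-10b-5p (right) as black diamonds and for the 5 miRNAs with the smallest root mean square difference from each as coloured points, by array. The nearest miRNAs of miR-10a-5p lie above their own mean on control array 2 and model array 2, as it does, but by less.

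No other miRNA of the Hox clusters was detected on any array. This covered the opposite arms miR-10a-3p and miR-10b-3p, both arms of miR-196a, miR-196b and miR-196c, which also lie in Hox clusters, and miR-615, 9 miRNAs in all. The strongest probe of miR-10a-3p reached 0.353 times its error and that of miR-10b-3p 0.707 times, where 3 times was required.

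MiR-99a-5p, miR-99b-5p and miR-100-5p, which resemble the miR-10 members in sequence but differ in seed, were steady between arrays. Their pooled SDs were 0.11, 0.098 and 0.077, at ranks 147, 153 and 171 of 198. MiR-100-5p, for example, had unscaled signals of 126, 166 and 119 (control) and 186, 201 and 162 (model). Their log2 differences, model minus control, were 0.17, 0.25 and 0.19 (standard errors 0.095, 0.091 and 0.082).

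In limma over all 214 miRNAs with Benjamini-Hochberg adjustment, 22.9% of miRNAs had an adjusted p under 0.05, 10.3% higher and 12.6% lower in the model group. Of the miR-99 and miR-100 relatives 0 of 3 passed, with adjusted p of 0.224, 0.120 and 0.153. At an unadjusted p under 0.05 there was 1 in limma, and the methods' t-test gave 2, of which 0 passed adjustment. Some alternatives brought them past the threshold in limma: miR-99b-5p and miR-100-5p with each array centred on the median (adjusted p = 0.0289 and 0.0454) and with averaged processed signals, miR-99a-5p with normexp, and all 3 with the totals as deposited. Their differences were above 0 in 17 of 17 alternatives, all of which reuse the same arrays.

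The tissue carried the miRNAs of heart muscle. Of the 6 listed for cardiomyocytes, 5 were compared and miR-208b-3p was not detected on any array. By limma with adjustment, 3 of the 5 fell in the model group: miR-1-3p by 0.76, miR-133a-3p by 0.68 and miR-133b-3p by 0.72 on the log2 scale (adjusted p = 0.0203, 0.0297 and 0.0268). MiR-208a-3p and miR-499-5p were at -0.87 and -0.69 and did not pass. With no scaling 0 of the 5 passed in limma, and likewise 0 without control array 1, 2 or 3 or model array 1.

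Fewer cells of a type and less RNA per cell cannot be told apart in such bulk tissue. The miRNAs of fibroblasts, miR-199a-5p, miR-199a-3p, miR-214-3p and miR-21-5p, rose in the model group in 4 of 4 cases, from 2.15-fold for miR-21-5p to 3.87-fold for miR-199a-5p (adjusted p = 0.0104 and 0.00147 in limma). All 4 are among the miRNAs that the study picked on these arrays, so the direction of the list is not independent evidence. Both arms of miR-126a, the miRNA of endothelium, fell, by 0.49 and 0.59 (adjusted p = 0.0154 and 0.0132 in limma), though 0 of 2 passed with no scaling or without control array 1, and 1 of 2 without control array 2. Of the smooth muscle list, miR-143-3p and miR-145-5p were both at -0.17 and did not pass, and miR-145-3p was not detected.

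Of the 6 leukocyte miRNAs, 5 were compared: miR-155-5p rose by 1.07 (adjusted p = 0.0127 in limma), miR-150-5p fell by 0.60 (adjusted p = 0.0178), and miR-142-3p, miR-223-3p and miR-146a-5p, at -0.073, 0.15 and -0.42, did not pass. MiR-142-5p was not detected. MiR-155-5p is also among the miRNAs that the study picked on these arrays, so its rise is not independent evidence. Without control array 1, 0 of the 5 passed, and without any one of control arrays 2 and 3 and model arrays 1 and 2, 1 passed. Of the red blood cell list, miR-486 fell by 0.68 (adjusted p = 0.0132 in limma), miR-451-5p was at -0.53 and did not pass, and miR-144-3p was not detected. The call of miR-486 was lost without control array 1, with no scaling, with the totals as deposited and in the authors' normalized values.

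The blocked fits ended most of these calls. With the replicate number as a block, 0 of the cardiomyocyte, endothelium, leukocyte and red blood cell miRNAs passed in limma. With slide row as a block, 1 of the endothelium list passed and 0 of the other 3 lists. With the totals as deposited, 0 of these 4 lists passed too. Of the fibroblast list, 4 passed with the replicate block and 3 with slide row as a block. The replicate block left the differences between groups unchanged but left fewer values to estimate the error. The row block rests the comparison on model array 1. How much of the loss of calls came from lower precision was not tested.

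Within a group, the summed signal of each of these 6 lists varied less than the miR-10 members did, though a sum over several miRNAs is steadier than a single one. Of the listed miRNAs detected on all arrays, miR-142-3p had the largest pooled SD, at 0.37, against 0.84 and 0.69 for the members. The scaled signal of the endothelium list ran from 8.16 to 9.17 on the control arrays and from 5.98 to 6.66 on the model arrays, 1.12-fold and 1.11-fold. That of the leukocyte list ran from 2.85 to 3.47 and from 2.03 to 2.51, and that of the smooth muscle list from 5.04 to 6.72 and from 4.74 to 5.46. The fibroblast list ran from 3.85 to 4.74 and from 10.2 to 14.4, and the red blood cell list from 1.79 to 2.10 and from 1.13 to 1.43. The cardiomyocyte list ran from 114 to 138 and from 60.9 to 85.1. The widest range within a group was 1.41-fold, of the fibroblast list in the model group, against 2.41-fold and 3.92-fold for miR-10a-5p. The part of each cell type in the signal of the members was not tested.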

How the data were processed

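Total RNA of myocardium was measured on 6 single-colour arrays, 3 control and 3 model, grouped by the sample labels. The authors deposited the output of Agilent Feature Extraction 10.7.1.1, with background-subtracted intensity values not scaled between arrays, and normalized log2 values of the same arrays by a method not given in the sources used here. No genome build is named for the files.

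Each miRNA's signal was rebuilt as the sum of probe signals over 3 times their error, because the deposited totals of 47 to 51 miRNAs per array exceeded their own probes by more than a relative 0.0001. Signals were scaled to their array's 75th percentile over the 198 miRNAs detected throughout, floored at the highest of the arrays' lowest detected levels (-6.50 on the log2 scale) and put on a log2 scale. A miRNA was kept if all arrays of 1 group or more detected it, which left 214. These entered limma 3.58.1 (R 4.3.3) with no covariate, and p-values were adjusted by Benjamini-Hochberg at 0.05. The fit was tested on simulated data. The limma p-values set the difference between groups against the spread between 3 rats per group, moderated over all 214 miRNAs. On the arrays 206 to 222 of 758 miRNAs were detected, no spot was saturated (0 on each array), and the number of arrays limits the precision.

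The members and lists were chosen with earlier results of these data known. Named were the members, the listed miRNAs and, for each member, the 5 miRNAs with the nearest profile; miR-31a-5p, miR-3584-3p, miR-192-5p, miR-671, miR-3562, miR-218a-5p and miR-425-3p were added with their values already seen. Alternatives were the totals as deposited, all probes, averaged processed signals, normexp, other scalings, the authors' values, other filters, limma with an intensity trend, the methods' t-test (unpaired, equal variances), blocks for replicate number and slide row, and leaving out each array. RefSeq sequences were matched by miRNA name. The other steps used Python 3.11.15, matplotlib 3.10.9, numpy 2.4.6 and pandas 2.3.3.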

Additional observations from a re-analysis of the deposited data

How the results depend on the processing

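Over alternatives that kept all arrays, the difference of miR-10a-5p lay between -0.32 and 0.15. Its sign was not stable, above 0 in 4 of the 17 alternatives run for it. The replicate block and the sum over all probes left it unchanged at -0.19. With each array left out in turn it ran from -0.70 to 0.28. That of miR-10b-5p ran from 0.35 to 1.14 with each array left out, and was 0.022 with normexp background correction, whose offset compresses dim signals. The difference of the log2 ratio ran from 0.71 to 1.27 with each array left out, and was 0.18 with the totals as deposited, which add miR-10a-5p to miR-10b-5p, and 0.099 with normexp. With each array left out, the pooled SD ran from 0.66 to 1.08 for miR-10a-5p and from 0.48 to 0.89 for miR-10b-5p. It was 0.28 and 0.030 with normexp, and 0.81 and 0.34 with averaged processed signals. Both settings average in the undetected probe of miR-10b-5p, and the processed signals of dim probes were raised to a floor first.

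Of all 214 miRNAs, 49 had an adjusted p under 0.05. The count was 19 with no scaling, 29 with slide row as a block, 26 with the methods' t-test and 9 of 758 without a detection filter, and ran from 14 to 39 with each array left out. It was 14 without control array 1, 26 without control array 2 and 27 without control array 3. The split into 22 higher and 27 lower became 19 and 47 when scaled to the 75th percentile over all miRNAs, 19 and 0 with no scaling, 30 and 16 with centring on the median and 35 and 1 with the totals as deposited. The totals as deposited also changed the scaling of each array. The cause of the changed counts was not tested.

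Replicate numbers are shared by the groups, and the labels do not say whether they pair the samples. Over 198 miRNAs, deviations of same-numbered arrays correlated at -0.26, 0.032 and 0.24, and only control array 3 correlated best with its own number. With so few arrays per group, these correlations cannot settle whether the samples were paired. With the replicate block the count was 16, miR-10a-5p stayed at -0.19 (standard error 0.18) and miR-10b-5p at 0.72 (standard error 0.25). Signal over background limits miR-10b-5p, with 1 of 2 probes detected and 2 control arrays near the limit.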

Other observations

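Besides the miR-10 members, and among the 198 miRNAs detected on all arrays, those with the largest pooled SD between arrays of one group were miR-3584-3p at 0.79, miR-192-5p at 0.65 and miR-671 at 0.64, named after their values were seen. In miR-3584-3p and miR-671 the spread lay in the model group, with SDs of 1.09 and 0.87 against 0.25 and 0.24 in the control group. MiR-192-5p, like miR-10a-5p, varied in both, at 0.64 for control and 0.66 for model (n = 3 each).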
